A study of Mus musculus with 2 samples.

Results

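Slc1a2, Gpc5, Mbp and St18 are 4 genes known for their use in glia, and their DNA methylation was described in the dentate gyrus of adult mice. Each gene was taken as a fixed window of the mm9 build, at positions 102498000 to 102632000 of chromosome 2 for Slc1a2, 115490000 to 116920000 of chromosome 14 for Gpc5, 82644000 to 82756000 of chromosome 18 for Mbp and 6477000 to 6852000 of chromosome 1 for St18. All cytosines of at most 100 reads listed in these windows in replicate 2 were used, 27047 of the 27435342 listed in that library. Slc1a2 contributed 1624 of them, Gpc5 20280, Mbp 733 and St18 4410. The windows measure 134, 1430, 112 and 375 kb.

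The libraries came from dentate gyri dissected on both sides from male wild-type mice on a C57Black6 background, 8 to 10 weeks old. They form 1 group of 2 replicates with no treatment, so every comparison below is between places in the genome. Replicate 1 listed 172020 cytosines and had too few in the windows for most values. Levels are therefore those of replicate 2 and have no replicate check. The sources used here do not say how many mice each library holds. The dentate gyrus contains granule neurons beside astrocytes, oligodendrocytes and other cells, and a level is the average over all of them. The share of each cell type and the methylation within it cannot be told apart. The tables hold no expression, so the use of these genes by glia in these samples was not checked.

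Slc1a2 encodes the glutamate transporter GLT-1, with which astrocytes clear glutamate released at synapses. Gpc5 encodes glypican 5, a heparan sulphate proteoglycan held at the cell surface by a lipid anchor. Myelin basic protein, the product of Mbp, compacts the myelin sheath that oligodendrocytes wrap around axons. St18 encodes a zinc finger transcription factor of the Myt family, known from the oligodendrocyte lineage. In mammalian DNA most methylation lies on CpG, and the brain also carries methylation on CHG and CHH cytosines (H is A, C or T), together called CpH, which accumulates mainly in neurons and favours cytosines followed by A. CpG methylation is typically low at promoters and enhancers in use, and CpH methylation in neurons is known to be lower over genes that a cell type transcribes.

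Depth was near its listed minimum throughout. The median was 22 to 23 reads per CpG and CHG site in the 4 windows, and 31 to 32 reads per CHH site, for which the table starts at 30 reads. The listing was thinnest in Mbp, with 49.3 CHG and 4.64 CHH sites per 10 kb, against 64.1 to 69.4 CHG and 14.5 to 17.8 CHH sites in its flanks. Slc1a2, Gpc5 and St18 had 82.91 to 89.97 CHG sites per 10 kb, and listed autosomal 100 kb bins averaged 76.2. Failed conversion was read from mitochondrial cytosines, whose CpH level was 0.368%. A level is the share of a region's reads that were methylated, given with exact Clopper-Pearson intervals at 95% that cover counting error only. Each window was set against 500 kb of flank on either side, called upstream at lower and downstream at higher coordinates, and against autosomal 100 kb bins with at least 20 sites of the context.

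CpG levels differed between the 4 genes. Slc1a2, Mbp and St18 were less methylated than their flanks, whereas Gpc5 was more methylated than its own. In the order of their levels, Gpc5 stood at 84.1% (83.8% to 84.4%), St18 at 76.5% (75.5% to 77.4%), Mbp at 73.7% (72.0% to 75.3%) and Slc1a2 at 69.2% (67.8% to 70.5%). No 2 of these intervals overlapped, but they cover counting error only, and those of St18 and Mbp nearly met. Over 4 equal parts of each window, levels ran from 66.8% to 79.7% in Mbp and from 72.7% to 79.8% in St18. These 2 genes were therefore not shown to be separate. All autosomal sites together were at 79.0%.

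The glutamate transporter gene Slc1a2 differed from its flanks by -9.23 percentage points (95% Newcombe interval -10.6 to -7.86). Its 197 CpG sites were at 69.2%, against 75.8% upstream and 80.9% downstream. Both flanks lay above the gene's interval. Among 23769 autosomal bins, 6.67% were lower than Slc1a2, and of 17589 autosomal windows of the same 134 kb, 4.22% lay further below their own flanks. With sites of at least 30 reads, 17.2% of bins were lower than Slc1a2. Highly methylated sites were fewer and less methylated. In the window 44.2% of sites were over 80% methylated, against 64.3% in the flanks, and sites above 50% averaged 80.5%, against 88.0% in the flanks.

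Gpc5 was 3.90 points above its flanks (3.37 to 4.44). Its 1853 CpG sites were at 84.1%, against 79.7% upstream and 80.7% downstream, with no overlap of intervals. Among 100 kb bins 82.8% were lower, and among autosomal bins of 1430 kb, as long as the gene, 99.1% were lower. Further above their own flanks lay 8.83% of 1642 autosomal windows of 1430 kb. Each of the 14 whole 100 kb bins inside Gpc5 lay above the autosomal median of 80.2%, from 80.8% to 87.9%. Weakly methylated sites were fewer in the gene. There 6.80% of sites were at or under 50%, against 11.8% in the flanks and 13.7% over the autosomes, while sites above 50% averaged 87.8% in the gene and 87.4% in the flanks.

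Mbp, the myelin gene, had 129 CpG sites at 73.7%, against 79.9% upstream and 74.4% downstream. Its difference from both flanks together was -3.14 points (-4.82 to -1.51), but its interval overlapped that of the downstream flank. Zfp236 is the next protein-coding gene on that side in the RefSeq order (GRCm38.p6), and the downstream flank itself was low in CpG methylation. With flanks of 200 kb the difference was -9.11 points. The bins lower than Mbp made up 15.6%, and of 21031 windows of 112 kb 21.3% lay further below their own flanks.

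St18 had 341 CpG sites at 76.5%, against 81.9% upstream and 81.4% downstream, a difference of -5.20 points (-6.26 to -4.16). Neither flank's interval overlapped that of the gene. Of the autosomal bins 26.1% were lower, and of 6294 windows of 375 kb 7.86% lay further below their own flanks. At or under 50% were 16.4% of St18 sites, against 10.0% in the flanks.

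**Figure D1:**
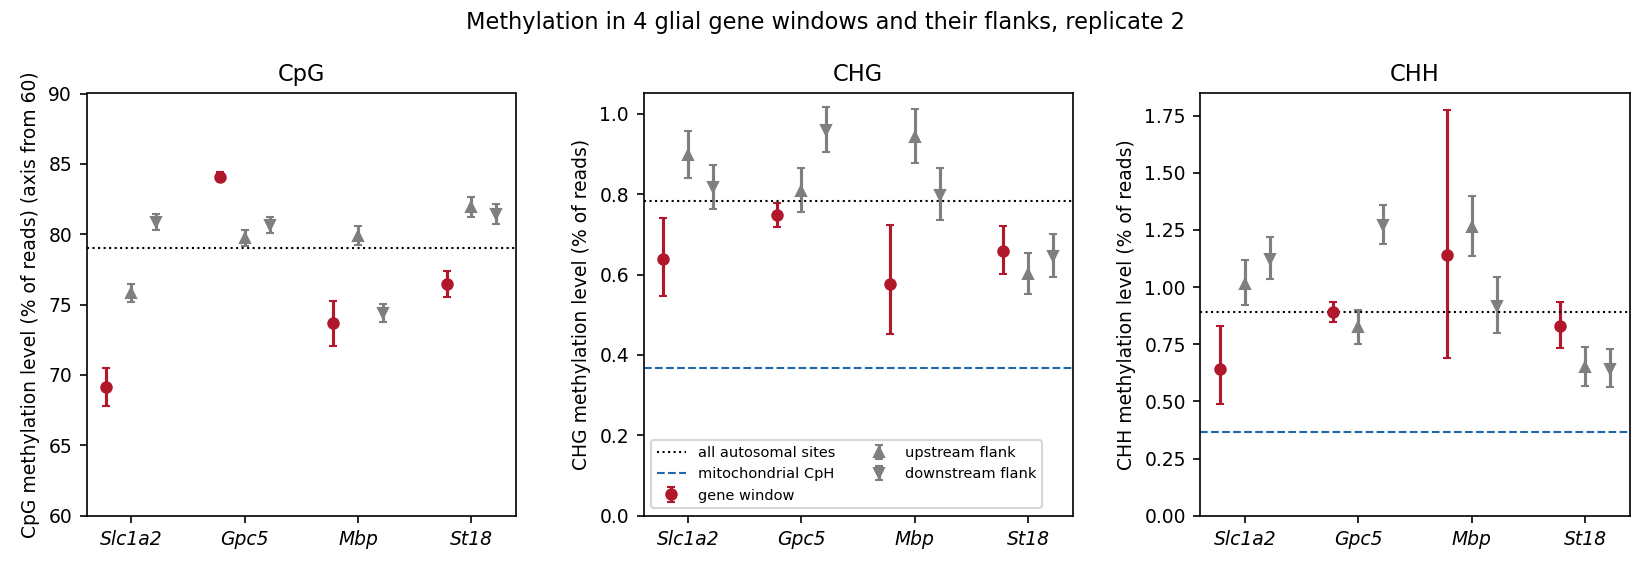
Methylation level (percent of reads, y axis) of each gene window (red circles, left) and of its upstream and downstream 500 kb flanks (grey triangles), for CpG, CHG and CHH in replicate 2, with error bars for exact 95% intervals. The CpG axis starts at 60%, dotted lines give all autosomal sites and dashed lines the mitochondrial CpH level. Gpc5 at 84.1% is the one gene above its flanks in CpG, and Slc1a2 is below both flanks in all 3 contexts.

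CHG methylation was low everywhere and differed less between genes. Gpc5 was at 0.748% (0.718% to 0.779%), St18 at 0.659% (0.602% to 0.720%), Slc1a2 at 0.638% (0.547% to 0.741%) and Mbp at 0.576% (0.453% to 0.723%). Neighbours in this order had overlapping intervals. Each level was 1.57 to 2.04 times the mitochondrial CpH level, and all autosomal sites were at 2.13 times it.

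Against their flanks, Slc1a2 and Mbp were low in CHG. Slc1a2 had 173 methylated of 27102 CHG reads (0.638%), against 0.898% upstream and 0.818% downstream, a difference of -0.22 points (-0.32 to -0.11). Mbp had 74 of 12845 reads (0.576%), against 0.943% and 0.798%, a difference of -0.30 points (-0.42 to -0.14). The windows of these genes lay below both flanks without overlap of intervals. Of autosomal windows as long as each gene, 10.3% lay further below their flanks than Slc1a2 and 5.05% further below than Mbp. With sites of at least 30 reads the intervals of both differences included 0. Slc1a2 then had 85 CHG sites and a difference of -0.25 points (-0.52 to 0.14), and Mbp 34 sites and -0.46 points (-0.69 to 0.071).

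Gpc5 had 2338 of 312474 CHG reads methylated (0.748%), against 0.808% upstream and 0.961% downstream. The difference from both flanks was -0.14 points (-0.19 to -0.091), the interval overlapped that of the upstream flank, and with sites of at least 30 reads the difference was -0.26 points. Further below their own flanks lay 14.0% of 1647 autosomal windows of 1430 kb. St18 was not separated from its flanks at 0.659%, against 0.601% upstream and 0.645% downstream. Its difference was 0.036 points (-0.031 to 0.11), and with flanks of 200 kb -0.14 points, so its direction depended on the flank. The flanks of St18 were themselves lower than those of the other genes. Among 23885 autosomal bins, 20.9% were lower in CHG than Mbp, 31.8% lower than Slc1a2, 35.8% lower than St18 and 52.5% lower than Gpc5. With sites of at least 30 reads these shares were 6.34% for Mbp, 43.1% for Slc1a2, 44.9% for St18 and 52.3% for Gpc5. The Mbp share then rested on 34 sites. Among bins as long as the gene, 45.6% were lower than Gpc5.

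CHH methylation gave another order. Mbp was at 1.14%, Gpc5 at 0.889% (0.847% to 0.933%), St18 at 0.829% (0.731% to 0.936%) and Slc1a2 at 0.641% (0.487% to 0.828%). The interval of Mbp, 0.688% to 1.78%, covered the levels of Gpc5 and St18. It rested on 52 sites, of which 6 had any methylated read, and without the site that held 7 of the 19 methylated reads its level was 0.734%. St18 overlapped both of its neighbours in the order. In CHH, 26.6% of 23714 autosomal bins were lower than Slc1a2, 49.8% lower than St18, 56.7% lower than Gpc5 and 77.4% lower than Mbp. The counting interval of Mbp spanned 32.3% to 95.1% of bins.

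Slc1a2 was again below its flanks. It had 58 of 9052 CHH reads methylated (0.641%), against 1.01% upstream and 1.12% downstream, a difference of -0.43 points (-0.59 to -0.24). Both flanks lay above its interval, and 7.93% of 17609 autosomal windows of 134 kb lay further below their own flanks. Slc1a2 thus had lower levels than both flanks in CpG, CHG and CHH, which were read from different cytosines of the same library. Neighbouring cytosines share reads, so the 3 contexts are not independent. Its flanks together were at 0.857% in CHG and 1.07% in CHH, above the 0.784% and 0.889% of all autosomal sites.

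The St18 window was above its flanks in CHH, at 0.829% against 0.648% upstream and 0.643% downstream, a difference of 0.18 points (0.071 to 0.30). The interval overlapped that of the upstream flank, and with flanks of 200 kb the difference was 0.042 points (-0.095 to 0.18). Further above their own flanks lay 19.4% of 6301 autosomal windows of 375 kb. St18 and both of its flanks were below the 0.889% of all autosomal CHH sites. Gpc5 lay between its flanks in CHH, at 0.889% against 0.824% upstream and 1.27% downstream. Its difference from both together was -0.18 points, and -0.10 points with flanks of 200 kb. Further below their own flanks lay 18.3% of 1643 autosomal windows of 1430 kb. For Mbp the flanks were at 1.26% and 0.915%, and the difference of 0.033 points (-0.39 to 0.67) did not separate gene and flanks.

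**Figure D2:**
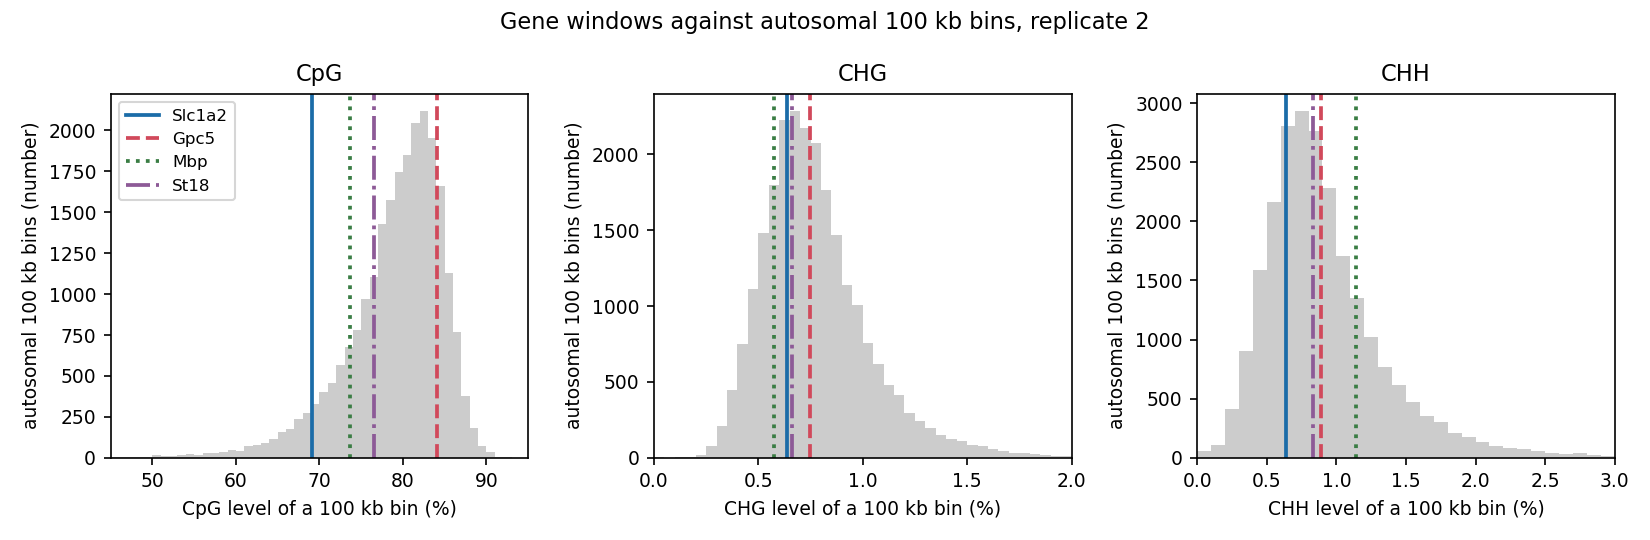
Number of autosomal 100 kb bins (y axis) by methylation level (percent, x axis) in CpG, CHG and CHH in replicate 2, with the level of each gene window as a vertical line. In CpG Slc1a2 lies at 69.2%, on the low side of the bins, and Gpc5 at 84.1% above most of them, while in CHG all 4 genes lie between 0.576% and 0.748%.

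CpH levels also differed by neighbouring base. Without a genome sequence of the build, the base after a cytosine was read from the tables: a cytosine listed at the next position shows a C there, and no listed cytosine leaves A, T or a C below the depth minimum. A C after a CHG cytosine is always the C of a CpG. CHG sites directly before a listed CpG were at 0.432% over the autosomes, and other CHG sites at 0.795%. Gpc5 showed the same split, with 0.250% (0.153% to 0.386%) at 334 sites before a listed CpG and 0.761% (0.731% to 0.793%) at 12531 other sites. Slc1a2 had 1 methylated of 1553 reads before a listed CpG, and 0.673% (0.577% to 0.781%) at other sites. In St18 these levels were 0.653% (0.314% to 1.20%) and 0.660%, and in Mbp 0.426% (0.088% to 1.24%) and 0.585%, so the intervals overlapped in both genes.

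At CHG sites without a listed next cytosine, Slc1a2 stood at 0.673% against 0.876% in its flanks, Gpc5 at 0.761% against 0.907%, Mbp at 0.585% against 0.880% and St18 at 0.660% against 0.626%. The order of gene and flanks was the same as over all CHG sites. Nearly all CHG sites of each gene and its flanks belong to this class, so the order could hardly have changed. The comparison therefore cannot tell whether sites before a listed CpG bear on the differences. Sites before a listed CpG made up 5.58% of CHG sites in Slc1a2 and 5.62% in Mbp, against 3.31% and 4.69% in their flanks.

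For CHH 3 classes were used: a listed cytosine at the next base, a listed cytosine at the second base but not the next, and neither. Over the autosomes these were at 0.355%, 2.06% and 0.767%, the first of them close to the mitochondrial level. Mitochondrial sites, used here as background, also differed by class, with 0.297% against 0.396% for CHG before a listed cytosine and elsewhere, and 0.310%, 0.436% and 0.379% for the 3 CHH classes. Gpc5 was near the autosomal levels of the 3 CHH classes, with 0.413% at 1153 sites, 2.05% (1.89% to 2.23%) at 831 sites and 0.771% at 3578 sites. In its flanks the classes were at 0.308%, 2.61% (2.40% to 2.84%) and 0.932%.

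Slc1a2 departed most in the second class. Its 61 sites with a listed cytosine at the second base alone were at 1.02% (0.623% to 1.57%), against 2.39% (2.15% to 2.65%) in its flanks and 2.06% over the autosomes. Sites with neither neighbour were at 0.475% (0.308% to 0.701%), against 0.970% (0.890% to 1.06%) in the flanks. In contrast, its 57 sites with a listed next cytosine were at 0.710% (0.379% to 1.21%), against 0.398% (0.317% to 0.494%) in the flanks, with overlapping intervals. Leaving out that class widened the CHH difference of Slc1a2 to -0.65 points.

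In St18 the second class was at 2.001% (1.58% to 2.50%) over 115 sites, against 1.25% (1.05% to 1.47%) in its flanks, and the class with neither neighbour at 0.770% (0.657% to 0.897%), against 0.612% (0.543% to 0.687%). The autosomal levels of these classes, 2.06% and 0.767%, lay within the St18 intervals and above those of its flanks. Sites with a listed next cytosine were at 0.323% (0.197% to 0.498%) in St18 and 0.315% (0.235% to 0.414%) in its flanks. Mbp had 12 sites in the second class, at 2.06% (0.892% to 4.01%), against 2.60% in its flanks, which this depth could not tell apart.

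**Figure D3:**
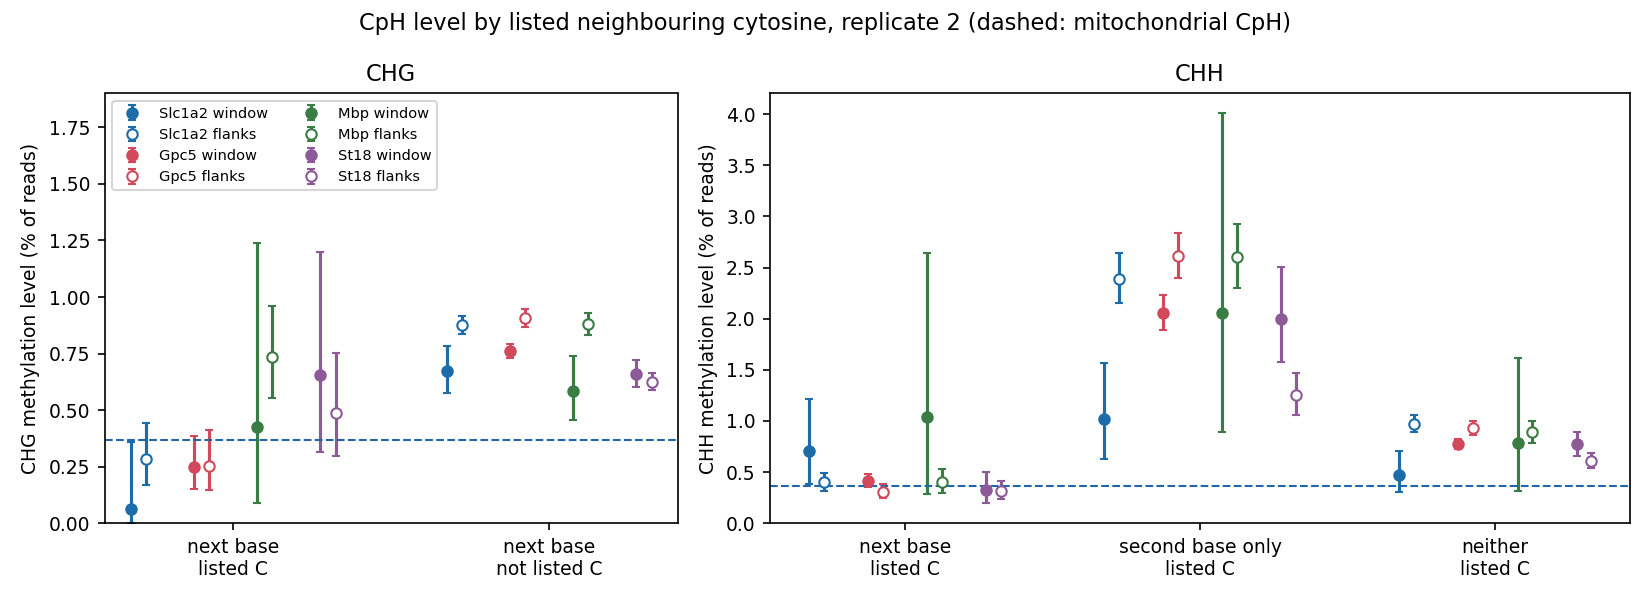
Methylation level (percent of reads, y axis) of CHG (left) and CHH (right) sites by listed neighbouring cytosine (x axis), with filled circles for the gene windows, open circles for both flanks together, and exact 95% intervals, in replicate 2. The dashed line is the mitochondrial CpH level of 0.368%. Among CHH sites with a listed cytosine at the second base alone, Slc1a2 (1.02%) lies below its flanks (2.39%) and St18 (2.001%) above its own (1.25%). Over the autosomes this class is at 2.06%.

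Low-CpG stretches were runs of at least 3 consecutive listed CpG sites, each at or under 50% methylated and within 1000 bp of the next. The 4 windows held 17 of them with 63 of 2520 CpG sites (2.50%), against 65 in the flanks with 5.66% of sites, and 5.42% of sites over the autosomes. St18 had 6 (17.6 per 1000 CpG sites), Slc1a2 3 (15.2), Mbp 1 (7.75) and Gpc5 7 (3.78), against 12.0 per 1000 over the autosomes. The flanks of St18 held 2 and 3, those of Slc1a2 12 and 7, those of Mbp 7 and 15 and those of Gpc5 10 and 9. Stretches were thus sparse in Gpc5 and denser in St18 than in its flanks. They held 8.12% of CpG sites in Slc1a2, 6.45% in St18, 2.33% in Mbp and 1.19% in Gpc5. Gpc5 had 1853 of the 2520 CpG sites, so the pooled 2.50% rests mostly on that gene. Since the stretches were chosen by CpG level, that level is a description.

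The run with most sites lay near the start of Slc1a2, between positions 102500091 and 102500960 of chromosome 2, and began 2.09 kb into the window. It had 10 CpG sites of 22 to 29 reads, whose levels in order of position were 0%, 0%, 26.1%, 10.3%, 7.69%, 3.70%, 18.2%, 12.5%, 18.2% and 0%, or 9.20% together. The next listed CpG, 1100 bp further on, was at 13.6%. In the same stretch 1 of 427 CHG reads was methylated (0.234%). It is the run that was still found with a minimum of 5 sites. Whether it is the promoter was not determined, as no gene annotation of this build was used.

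Further into Slc1a2, the stretch at 102570239 to 102571117 had 3 sites at 20.8% and that at 102584792 to 102585635 had 3 sites at 29.7%. The first lay between listed CpG sites at 85.7% before and 96.9% after it, and the other between sites at 41.0% and 73.9%.

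St18 held 4 of its 6 stretches close together, from 6719342 to 6749664 of chromosome 1, in the third of 4 equal parts of its window. The first of these, at 6719342 to 6720598, had 4 sites of 42.9%, 15.4%, 19.2% and 25%. The next, at 6722889 to 6723535, had 4 sites of 34.4%, 34.8%, 45.5% and 9.52%. Another, at 6726326 to 6726562, had 4 sites at 30.5% together, and the fourth, at 6748971 to 6749664, 3 sites at 30.5%. The 4 levels thus ran from 24.7% to 31.6%. The sixth, at 6810217 to 6810505, was at 22.7%. The lowest St18 stretch lay earlier, at 6647412 to 6648430, with sites of 5%, 9.52%, 32% and 14.3%.

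The 7 Gpc5 stretches ran from 64 to 1008 bp. The one with most sites, at 116015972 to 116016457 of chromosome 14, had levels of 39.1%, 47.6%, 19.05% and 0%. The stretch at 115669149 to 115670156 had 47.6%, 4.55% and 4.17%, and that at 115605364 to 115605536 had 30%, 39.1% and 47.8%, with a CpG at 82.6% only 2 bp after it. Mbp had 1 stretch, at 82687723 to 82687780 of chromosome 18, with 40%, 40.9% and 20%. With a limit of 30% in place of 50%, 1 stretch was left in Slc1a2, 2 in St18 and 0 in Gpc5 and Mbp.

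CpH methylation inside the stretches was read from other sites. Over all 17 stretches 15 of 3647 CHG reads were methylated, 0.411% (0.230% to 0.678%), an interval that holds the mitochondrial level of 0.368%. Within single genes they were at 0.349% (0.072% to 1.02%) in Slc1a2, 0.504% (0.164% to 1.17%) in Gpc5 and 0.412% (0.166% to 0.848%) in St18, and 0 of 96 reads were methylated in Mbp (up to 3.77%). Outside the stretches CHG was at 0.648% in Slc1a2, 0.749% in Gpc5, 0.580% in Mbp and 0.665% in St18, within those intervals. Set against the interval of all 17 stretches, the outside level of Gpc5 lay above it, and those of Slc1a2, Mbp and St18 within it. Gpc5 gave 993 of the 3647 CHG reads in stretches, so that interval rests mostly on the other genes. The 31 CHH sites in stretches were at 1.36% (0.747% to 2.27%), too few to set against the rest. Without its stretches the CpG level was 74.0% (72.7% to 75.3%) in Slc1a2, 84.7% in Gpc5, 74.6% in Mbp and 80.1% (79.2% to 81.0%) in St18. Slc1a2 and St18 then overlapped 1 flank each, the upstream flank of Slc1a2 and the downstream flank of St18, with the flanks' own stretches left in.

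**Figure D4:**
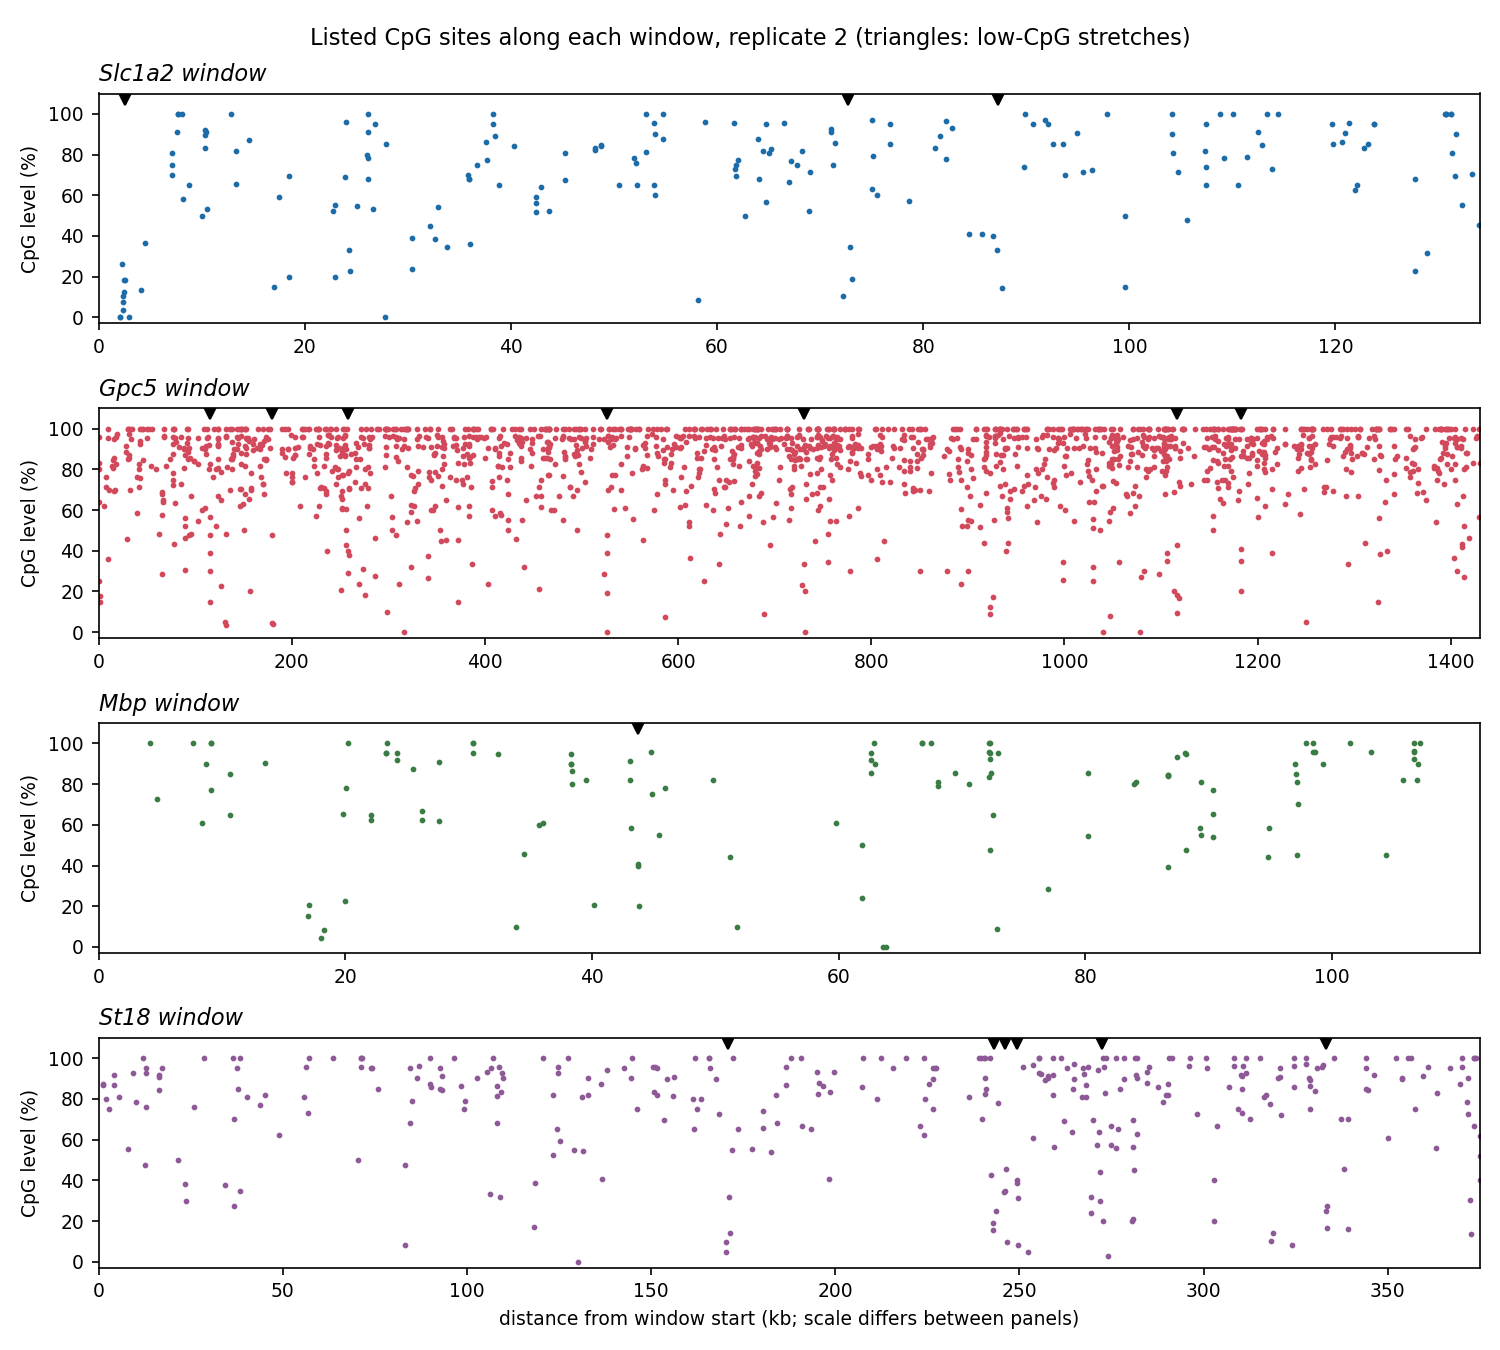
Methylation level (percent, y axis) of each listed CpG site against its distance from the start of the window (kb, x axis, scale differs between panels) in replicate 2, with black triangles at the low-CpG stretches. The 10-site run of Slc1a2 stands 2.09 kb from the window start, and 4 of the 6 St18 stretches stand together in the third of 4 equal parts.

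CpG levels also changed along the windows. Over 4 equal parts of its window Slc1a2 was at 54.4% (51.7% to 57.0%), 74.6%, 70.4% and 80.8% (78.3% to 83.2%), so the first part was lowest and the last near the downstream flank. The first 10 kb were at 40.6% (36.2% to 44.99%) over 21 sites. Gpc5 was at 80.7% (79.98% to 81.5%) in its first part and at 85.6%, 84.3% and 85.8% in the others. In St18 the levels were 79.7%, 75.01%, 72.7% and 79.8%, lowest in the third part. Most St18 stretches lay there, and since stretches were chosen by low CpG level, their sites lower that part by definition. Levels in the parts of Mbp were 71.5%, 66.8%, 74.3% and 79.7%, with 28 to 38 sites in each. RefSeq (GRCm38.p6) has Slc1a2 and Gpc5 promoters on the plus strand, so the parts run in the direction of transcription for these genes.

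CHG levels did not follow these gradients. In the parts of Slc1a2 they were 0.677%, 0.663%, 0.692% and 0.529%, and in those of Gpc5 0.758%, 0.765%, 0.755% and 0.710%, with overlapping intervals in each gene. St18 ranged over 0.613% to 0.709% and Mbp over 0.515% to 0.652%, also with overlap. For CHH, the first part of St18 stood out at 1.56% (1.20% to 1.99%) over 126 sites, against 0.685%, 0.683% and 0.782% in the others. Without its most methylated site, which held 12 methylated of 35 reads, that part was at 1.28% (0.956% to 1.67%). Sites with a listed next cytosine, the low class, made up 11.9% of CHH sites there and 14.9% to 24.4% in the others, and its share in the result was not tested.

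In 10 kb bins with at least 10 CHG sites, Gpc5 ranged from 0.144% to 2.18% over 143 bins, with a median of 0.708%. The highest bin, 115790001 to 115800000, was at 2.18% (1.54% to 2.996%) over 75 CHG sites, and its CHH level was 1.47% and its CpG level 84.6%. The next were 116840001 to 116850000 at 1.47% and 116260001 to 116270000 at 1.42%. At the low end 116810001 to 116820000 was at 0.144% (0.030% to 0.419%), 116360001 to 116370000 at 0.185% and 115960001 to 115970000 at 0.224%. These bins were picked by their CHG level, so their difference in CHG is a description. The CpG level was 84.6% in the highest and 83.5% in the lowest.

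St18 ranged from 0.151% to 1.47% over 38 such bins. Its highest was 6787001 to 6797000, at 1.47% (1.07% to 1.98%) over 121 sites, where CHH was at 0.153% (0.019% to 0.553%) over 40 sites, so the contexts parted there. The bins 6677001 to 6687000 and 6697001 to 6707000 followed at 1.27% and 1.04%. The lowest were 6557001 to 6567000 at 0.151%, 6537001 to 6547000 at 0.198% and 6767001 to 6777000 at 0.279%.

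In Slc1a2 the 14 bins ranged from 0.183% to 1.01%. The highest, 102558001 to 102568000, was at 1.01% (0.669% to 1.47%), followed by 102518001 to 102528000 at 0.917% and 102578001 to 102588000 at 0.883%. The lowest were the last bin, 102628001 to 102632000, at 0.183%, then 102528001 to 102538000 at 0.230% and the first bin, 102498000 to 102508000, which holds the long low-CpG stretch, at 0.303%. Mbp had 11 bins from 0.257% to 0.845%, in which every interval overlapped every other. Its highest were 82734001 to 82744000, 82644000 to 82654000 and 82724001 to 82734000 at 0.845%, 0.809% and 0.804%, and its lowest 82744001 to 82754000, 82684001 to 82694000 and 82674001 to 82684000 at 0.257%, 0.391% and 0.421%.

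**Figure D5:**
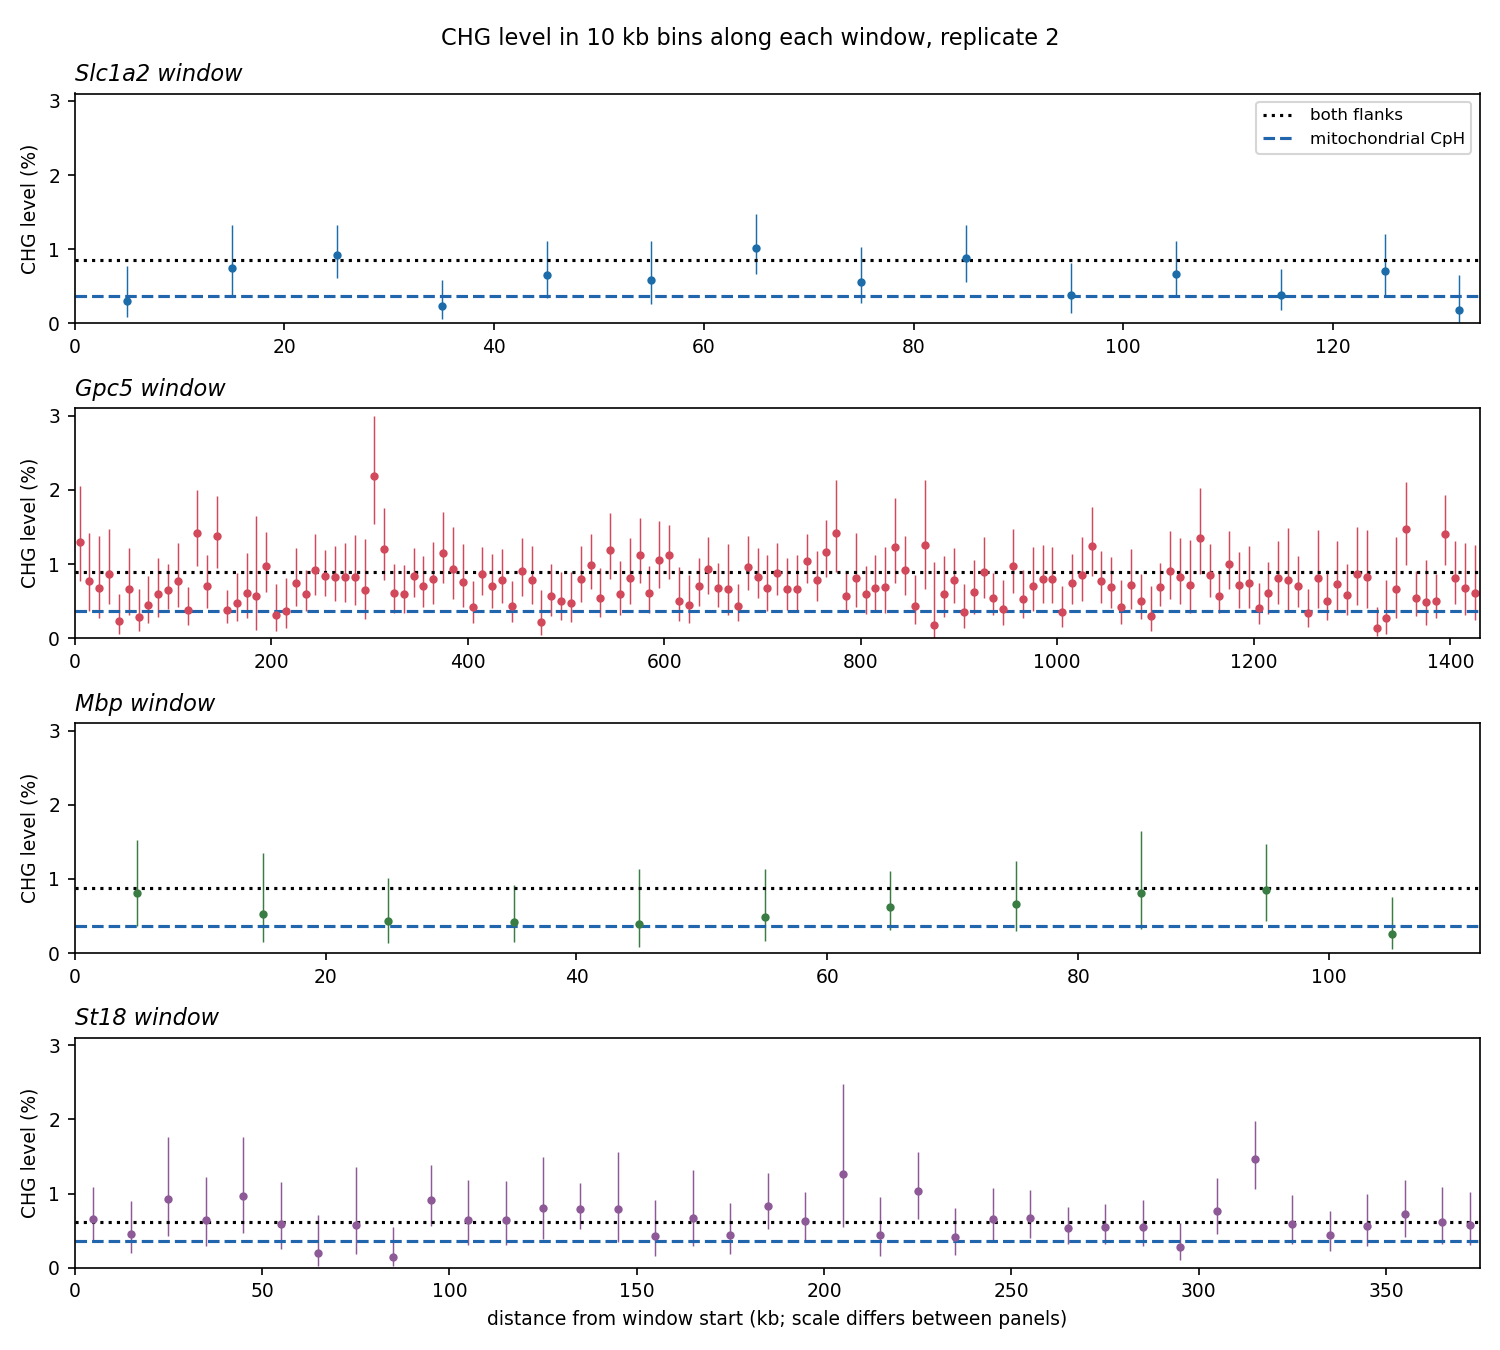
CHG level (percent of reads, y axis) in 10 kb bins with at least 10 CHG sites against distance from the window start (kb, x axis, scale differs between panels) in replicate 2, with exact 95% intervals. The dotted line is the CHG level of both flanks and the dashed line the mitochondrial CpH level of 0.368%. The Gpc5 bin at 2.18% is the highest point, and Mbp bins lie between 0.257% and 0.845%.

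Single CpH sites counted as methylated where their reads passed an exact binomial test, one-sided, against the mitochondrial CpH level, adjusted by Benjamini-Hochberg over all nuclear sites of the context at 0.01. Of all such sites, 1.46% of CHG and 2.75% of CHH passed and are termed called, or 1.79% of both together. In the 4 windows 220 of 17672 CHG sites (1.24%) and 188 of 6855 CHH sites (2.74%) were called, shares near those of all sites. By gene, 327 of 18427 CpH sites were called in Gpc5 (1.77%), 53 of 4069 in St18 (1.30%), 19 of 1427 in Slc1a2 (1.33%) and 9 of 604 in Mbp (1.49%). At 20 reads 3 methylated reads were needed for a call at CHG, so that levels under 15% at one site were not detectable there.

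The share of CHG sites called was 1.31% (0.734% to 2.15%) in Slc1a2 against 1.61% in its flanks, 1.30% (1.11% to 1.51%) in Gpc5 against 1.79% (1.53% to 2.08%), 1.09% in Mbp against 1.84%, and 1.03% in St18 against 0.982%. Gpc5 alone had no overlap of intervals with its flanks. For CHH, 4 of 281 sites were called in Slc1a2 (1.42%, 0.389% to 3.604%), against 3.43% (2.78% to 4.18%) in its flanks, with overlapping intervals. The CHH share was 2.88% (2.45% to 3.35%) in Gpc5 against 3.54% in its flanks, 5.77% (1.21% to 15.9%) in Mbp against 3.96%, and 2.19% (1.36% to 3.32%) in St18 against 1.77%. All 4 intervals overlapped those of the flanks.

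Called sites had median levels of 15.4% to 19.5% at CHG and 11.5% to 12.5% at CHH over the 4 genes. These medians lay near the lowest level that could be called, 15% at 20 reads in CHG and 10% at 30 reads in CHH. The depth minimum thus bears on them, and they do not compare the strength of the contexts. The strongest was a CHH cytosine of Gpc5 at position 116516745 of chromosome 14, with 16 of 30 reads methylated, or 53.3% (exact binomial adjusted p = 3.87e-28). Gpc5 also had a CHG cytosine at 115639282 with 11 of 24 reads (45.8%, exact binomial adjusted p = 1.997e-17) and a CHH cytosine at 115946904 with 11 of 32 reads (34.4%, adjusted p = 1.36e-16).

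In St18 the strongest were CHH cytosines at 6482821 of chromosome 1, with 12 of 35 reads (34.3%, exact binomial adjusted p = 3.85e-18), and at 6781763, with 10 of 38 reads (26.3%, adjusted p = 8.96e-14), and a CHG cytosine at 6615037, with 8 of 27 reads (29.6%, adjusted p = 8.07e-11). Slc1a2 had CHG cytosines at 102523987 of chromosome 2, with 7 of 28 reads (25%, exact binomial adjusted p = 7.46e-09), and at 102560225, with 6 of 20 reads (30%, adjusted p = 5.66e-08), and a CHH cytosine at 102589917, with 6 of 32 reads (18.8%, adjusted p = 2.86e-07). The strongest sites of Mbp were a CHH cytosine at 82750622 of chromosome 18, with 7 of 30 reads (23.3%, exact binomial adjusted p = 3.87e-09), and CHG cytosines at 82652392, with 6 of 21 reads (28.6%, adjusted p = 7.07e-08), and at 82682136, with 4 of 20 reads (20%, adjusted p = 0.000162). None of these 12 sites had a listed cytosine at the next base, as held for 96.9% of CHG and 78.1% of CHH sites over the autosomes.

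Replicate 1 listed no cytosine in Slc1a2, 3 CHG sites in Mbp with 0 of 62 reads methylated (up to 5.78%), and 4 CHH sites in St18 with 2 of 80. In Gpc5 it listed 5 CpG sites at 61.5% (51.7% to 70.6%), 14 CHG sites with 0 of 304 reads methylated (up to 1.21%) and 59 CHH sites at 1.71% (1.08% to 2.58%). That CpG interval lay below the 84.1% of replicate 2, which rests on 1853 sites. At the 2 CpG sites of Gpc5 listed in both libraries, levels were 64.4% in replicate 1 and 65.3% in replicate 2. The Gpc5 flanks held 1 CpG site in replicate 1, with 22 of 22 reads methylated, too few to set against the gene. In replicate 1 the CHH difference between Gpc5 and flanks was 0.86 points (-0.14 to 1.82), opposite in sign to that of replicate 2, with an interval that includes 0. Both libraries listed 24 sites of Gpc5, 3 of Mbp and 1 of St18, and none of the 28 passed a two-sided Fisher's exact test adjusted over 54732 shared sites, of which 0.0238% passed. Among them, 1 had an unadjusted p under 0.05, the CHH cytosine at 116478617, with 4 of 24 reads methylated in replicate 1 and 0 of 39 in replicate 2 (Fisher's exact p = 0.0178, adjusted p = 1).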

How the data were processed

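Bisulfite reads were available as 6 tables without headers, 1 per library and context, covering 1 strand class (OT). For each cytosine the authors deposited 3 counts (reads in all, methylated and unmethylated) and the methylated percent. Per the submitters' processing notes, Bismark 0.7.5 and mm9 were used, and neither label nor note says how reads were trimmed or duplicates treated. The lowest depth was 20 reads, or 30 for CHH in replicate 2, which listed 27435342 cytosines and 791200717 read calls. Replicate 1 listed 172020 and 30594981. No sequence or annotation of mm9 was used, so no promoter or exon was placed.

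Sites of at most 100 reads were kept, and mitochondrial sites, without that limit, gave the background. Levels were pooled over reads. Intervals are Clopper-Pearson, and Newcombe for differences. PCR reads are not independent molecules, and neighbouring cytosines share reads, so intervals and p-values are too narrow. Binomial and Fisher tests were checked on simulated data with independent reads, which cannot show the effect of this dependence. Members, lists and tests were chosen with earlier results of these data known, and alternatives that leave out a gene's most methylated site were added after the values were seen. The named bins are the 3 highest and 3 lowest by CHG level, the named stretches the 3 per gene with most sites (other St18 stretches were named after their positions were seen), and the named CpH sites the 3 with lowest p. Python 3.11.15, numpy 2.4.6, pandas 2.3.3 and scipy 1.17.1 were used.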

Additional observations from a re-analysis of the deposited data

How the results depend on the processing

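No paired analysis was possible because the study has a single group, and replicate 1 held too few sites to be left in or out. Of 64 recomputed gene minus flank differences, 16 rested on the same sites as the reported value and could not move, since no site there exceeded 100 reads and CHH starts at 30. Of the other 48, 37 moved by less than counting error, which does not keep an interval clear of 0. With flanks of 200 kb, the difference became -9.11 points for Mbp CpG, -0.10 for Gpc5 CHH, -0.14 for St18 CHG and 0.042 for St18 CHH. With at least 30 reads it became -7.31 for Slc1a2 CpG, 5.40 for Gpc5 CpG, -0.26 for Gpc5 CHG and -0.46 for Mbp CHG, and Mbp CpG had under 20 sites. Without CHH sites before a listed cytosine it was -0.65 for Slc1a2 and -0.26 for Gpc5. In replicate 1 Gpc5 CHH reversed to 0.86. The cause was not tested, other than that 30 reads leave fewer sites.

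Low-CpG stretches in Slc1a2, Gpc5, Mbp and St18 numbered 1, 0, 0 and 2 with each site at or under 30%, 1, 0, 0 and 0 with at least 5 sites, and 0 in each gene with at least 30 reads. Called CpH sites in the same order numbered 7, 128, 5 and 19 with a background of 1%, and 6, 184, 3 and 25 with at least 30 reads. Of 59 recomputed percentiles among autosomal bins, 11 left the range given by counting error, among them Gpc5 CpG, 70.3 with at least 30 reads and 99.1 with bins as long as the gene, and with at least 30 reads Slc1a2 CpG at 17.2 and Mbp CHG at 6.34.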

Other observations

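The flanks of Mbp differed from each other. In the downstream flank, 6.37% of 816 CpG sites had no methylated read, against 1.59% of 628 upstream and 1.82% over the autosomes, and 15 low-CpG stretches held 11.2% of its CpG sites, against 4.78% in 7 stretches upstream. CHG sites before a listed CpG were at 0.735% (0.553% to 0.958%) in both flanks of Mbp, against 0.432% over the autosomes.

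Across 10 kb bins of Gpc5 with at least 10 sites of both contexts, CHG and CHH levels were nearly unrelated (Spearman's rho 0.057 and Pearson's r 0.13, 131 bins), as were CHG and CpG levels (-0.078 and -0.039, 106 bins). These are descriptions over bins of 1 library that share depth, and few reads per bin limit them.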
